A study of Mus musculus with 10 samples.

Results

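The genes of the MHC class II pathway and their master regulator Ciita were followed in kidneys of mice with and without a working Ehhadh gene, which encodes a peroxisomal enzyme of fatty acid β-oxidation. The 9 genes were chosen by name, as the rows H2-Aa, H2-Ab1, H2-Eb1, H2-DMa, H2-DMb1, H2-Oa, H2-Ob, Cd74 and Ciita of the deposited count matrix. All 9 were found among its 24062 genes, and all 9 passed the filter on low counts. Polyadenylated kidney RNA was sequenced from 4 Ehhadh knockout (KO) and 4 wild-type (WT) adult male C57BL/6N mice. A single WT library of each of the strains DBA_2J and 129S2_SvPasCrl stood beside them. The labels give the genotype only as ko or wt, so the sources used here do not give how the allele was made or in which cells the gene was lost.

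MHC class II molecules are surface dimers of an α and a β chain that show peptides from the endosome to CD4+ T cells. In C57BL/6 mice the dimer is I-A, made from H2-Aa and H2-Ab1. The I-E β chain, encoded by H2-Eb1, has no partner there, because the H2b haplotype carries a defective α chain gene. New dimers are held by the invariant chain (Cd74) until H2-DM, a dimer of the H2-DMa and H2-DMb1 products, exchanges its remnant for a peptide, and H2-DO (H2-Oa and H2-Ob) restrains H2-DM. Ciita, the class II transactivator, binds no DNA itself and is recruited by factors on the X and Y boxes of class II promoters. In kidney the pathway is active in dendritic cells and macrophages, and tubule cells can switch it on after interferon-γ.

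The promoter stretches below are shown because their X and Y boxes are where Ciita is recruited. RefSeq windows of 300 bases around the transcription start (GRCm38.p6) were searched on both strands for GNAAC, the first letters of an X box, and GATTGG, a Y box. The letters were chosen after the sequences had been read. A window was counted as holding the pair where GATTGG began 24 to 40 bases after GNAAC on the same strand. The pair was in 315 of 32851 RefSeq windows (0.959%), while GNAAC alone was in 84.8% and GATTGG alone in 16.1%. It was in the windows of H2-Aa, H2-Eb1, H2-DMb1, H2-Oa and H2-Ob. These are shown here 5′ to 3′ on the gene's own strand, with only the searched letters in capitals.
H2-Aa, chr17:34287857-34287910, minus strand: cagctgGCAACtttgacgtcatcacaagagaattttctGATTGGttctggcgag
H2-Eb1, chr17:34305770-34305822, plus strand: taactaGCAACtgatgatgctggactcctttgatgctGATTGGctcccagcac
H2-DMb1, chr17:34153091-34153144, plus strand: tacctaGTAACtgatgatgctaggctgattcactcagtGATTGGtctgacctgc
H2-Oa, chr17:34092297-34092350, plus strand: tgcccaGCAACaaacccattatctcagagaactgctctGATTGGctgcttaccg
H2-Ob, chr17:34238812-34238862, plus strand: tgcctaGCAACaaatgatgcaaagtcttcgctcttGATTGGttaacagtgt
GNAAC and GATTGG started 32 bases apart in H2-Aa, H2-DMb1 and H2-Oa, 31 apart in H2-Eb1 and 29 apart in H2-Ob. The H2-DMa windows do not hold the pair. A match of letters is a description, and no match says only that these letters are not in the window. The table used has no entry for H2-Ab1, Cd74 and Ciita.

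All 7 H2 genes lie on chromosome 17 within 0.2243 Mb, from base 34092379 to 34316674 (mm10). Cd74 lies on chromosome 18 (60803849 to 60812652, plus strand). Ciita lies on chromosome 16 (10480072 to 10527564, plus strand), the chromosome of Ehhadh, and ends 11.23 Mb before Ehhadh starts. Exons of H2-Oa share 200 bases with the antisense gene BC051537, and the 12 exon bases that Mir5107 shares with Cd74 are counted for both. Of the 100-base stretches of the annotated transcripts of H2-DMb1, 11.34% also occur in its near copy H2-DMb2. The same share is 6.577% for H2-DMa (with Brd2) and 8.976% for H2-Oa (with BC051537), so counts of these 3 genes are less certain than those of H2-Aa, H2-Ab1, H2-Eb1, H2-Ob and Cd74. Only 0.3241% of those of Ciita are shared (with Dexi).

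Total gene counts ran from 19.79 to 57.25 M per library, and the KO libraries were the deeper ones, with a mean of 47.2 ± 4.8 M counts where WT had 29.8 ± 7.0 M (SD, n = 4 each). The two-sided p of this depth difference was 0.0286 in an exact permutation test, which is the lowest such a design can give. Values are therefore given per M counts (CPM) after scaling. In the check of the genotype labels, Ehhadh was read at 2492 ± 634 CPM in WT and 260 ± 65.5 CPM in KO (log2 fold change −3.26, SE 0.21; adjusted p = 1.86e-05 in edgeR). In bulk tissue, more cells of one type and more RNA per cell cannot be told apart.

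In KO kidneys the invariant chain, the I-A and I-E β chains, both H2-DM chains and Ciita were higher than in WT. The test called 6 of the 9 genes higher and 0 lower (edgeR quasi-likelihood test, adjusted p under 0.05 over 15547 genes). The background over all tested genes was 6.32% for higher and 4.68% for lower calls. The median log2 fold change of the 9 genes was 1.10, against −0.01 over all tested genes. DESeq2 called 7 higher and limma-voom 5, with 0 lower in both, and at an unadjusted p under 0.05 there were 7 higher and 0 lower. The shares of all tested genes called higher were 8.37% in DESeq2, 6.03% in limma-voom and 13.6% at an unadjusted p under 0.05. The shares called lower were 6.99%, 4.7% and 12.4%, in the same order. In 4 of the 9 genes (H2-Ab1, H2-DMa, H2-DMb1 and Cd74) each KO library lay above each WT library, against 9.77% of all tested genes. The opposite held for 0 of the 9, against 7.95%. The number of genes called among the 9 stayed between 4 and 7 when 1 library was left out, while that over all tested genes, 1710, fell to 1006 without WT replicate 3, 1005 without KO replicate 1 and 1068 without KO replicate 2.

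**Figure D1:**
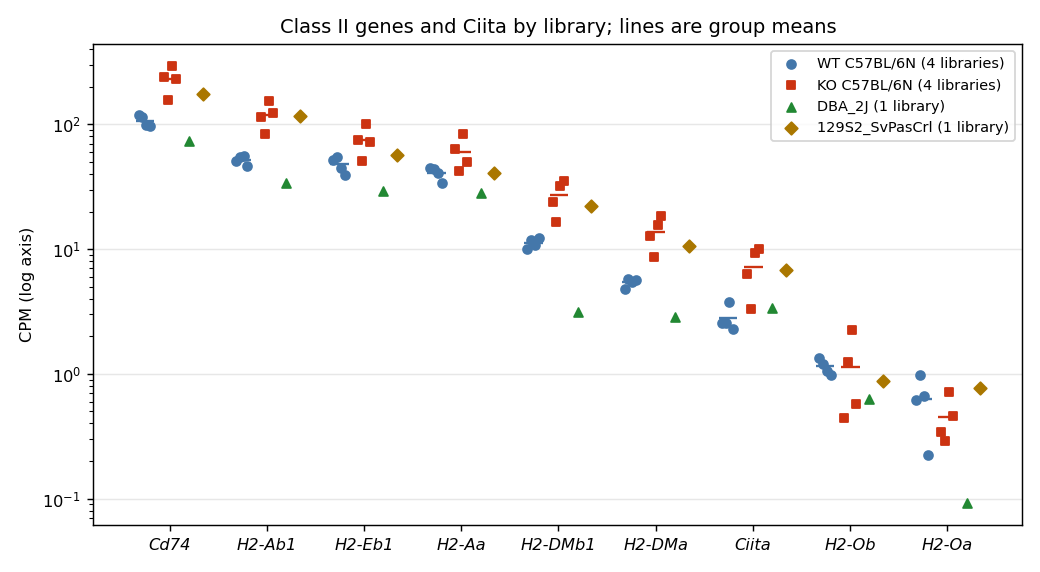
CPM of the 9 genes in each library on a log axis, with 4 WT (circles) and 4 KO (squares) C57BL/6N libraries, short lines at group means, and the single DBA_2J (triangle) and 129S2_SvPasCrl (diamond) libraries. KO squares lie above all WT circles for Cd74, H2-Ab1, H2-DMb1 and H2-DMa, and mix with them for H2-Ob and H2-Oa.

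H2-Ab1, the I-A β chain gene (34263227 to 34269418, plus strand), had 51.1, 54.6, 55.7 and 46.2 CPM in WT replicates 1 to 4 and 114.4, 83.4, 154.9 and 123.3 CPM in KO replicates 1 to 4. Every KO library exceeded every WT library, and the lowest of them was KO replicate 2. The mean was 51.9 ± 4.24 CPM in WT and 119 ± 29.4 CPM in KO (SD, n = 4 each), a 2.29-fold difference with a 95% interval of 1.82 to 2.89 (edgeR adjusted p = 0.000748).

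Its α chain partner H2-Aa (34282751 to 34287771, minus strand) differed less. It had 44.5, 43.9, 41.0 and 34.2 CPM in the WT libraries and 63.9, 42.6, 83.6 and 50.3 CPM in the KO libraries. KO replicate 2 lay among the WT libraries, and the other 3 KO libraries lay above them. The ratio of 1.47 (95% interval 1.13 to 1.93) did not pass the test (edgeR adjusted p = 0.0671). H2-Aa was called by DESeq2 (adjusted p = 0.0154) and by edgeR without KO replicate 2 (adjusted p = 0.0252).

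H2-Eb1, the I-E β chain gene (34305867 to 34316674, plus strand), had 52.0, 54.9, 44.9 and 39.0 CPM in the WT libraries and 75.2, 51.2, 99.9 and 72.1 CPM in the KO libraries. Again KO replicate 2 fell within the WT range and the others above it. The difference was 1.57-fold (95% interval 1.20 to 2.04; edgeR adjusted p = 0.0356). This call was lost without any 1 of WT replicates 1, 3 and 4 or KO replicates 1, 3 and 4 (edgeR adjusted p = 0.0506 to 0.0964).

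Cd74 was the most abundant of the 9 genes per base of exon, at 75.8 RPKM (CPM per kb of exon) in WT and 162.5 RPKM in KO, against 43.5 and 99.7 RPKM for H2-Ab1 and 38.2 and 56.2 RPKM for H2-Aa. It had 119.1, 114.6, 99.0 and 96.3 CPM in the WT libraries and 238, 157.2, 294.8 and 230.1 CPM in the KO libraries. The groups did not overlap. The fold was 2.15 (95% interval 1.69 to 2.72; edgeR adjusted p = 0.00137).

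The H2-DM chains, which load peptide, had the largest fitted differences of the 9 genes after Ciita. H2-DMa (34122832 to 34139101, plus strand) had 4.78, 5.80, 5.40 and 5.66 CPM in the WT libraries and 12.7, 8.64, 15.8 and 18.3 CPM in the KO libraries, a 2.55-fold difference (95% interval 1.88 to 3.46; edgeR adjusted p = 0.0018). H2-DMb1 (34153191 to 34160229, plus strand) had 10.02, 11.8, 10.8 and 12.4 CPM in the WT libraries and 24.1, 16.4, 32.2 and 35.2 CPM in the KO libraries, a 2.40-fold difference (95% interval 1.77 to 3.25; edgeR adjusted p = 0.00271). In both genes every KO library lay above every WT library, and KO replicate 4 was highest. The differences of log2 fold change between genes were not tested, and the 95% intervals of H2-DMa and H2-DMb1 overlap those of H2-Ab1, Cd74 and Ciita.

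H2-DMb2, the second H2-DM β chain gene (34145416 to 34151095, plus strand), is not among the 9 genes. It was low, at 0.98, 0.73, 0.89 and 0.45 CPM in the WT libraries and 2.45, 1.496, 3.73 and 4.10 CPM in the KO libraries. The test called it higher (log2 fold change 1.97, SE 0.35; edgeR adjusted p = 0.00515), and the groups did not overlap. Of the other class II genes of the region, H2-Eb2 had at most 9 counts, Btnl2 at most 7 and Btnl1 at most 3 in any C57BL/6N library, and none of these 3 was tested. The promoter window of H2-Eb2 holds the X and Y pair, 31 bases apart (chr17:34325537-34325589), and that of H2-DMb2 does not. The H2-DMb2 window (34144999 to 34145298) ends before the start of the gene as counted, so the bases next to that start were not searched.

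The H2-DO genes were not called in either direction. H2-Oa (34092379 to 34095234, plus strand) had 0.62, 0.99, 0.67 and 0.22 CPM in the WT libraries and 0.34, 0.29, 0.72 and 0.46 CPM in the KO libraries (log2 fold change −0.46, 95% interval −1.45 to 0.52; edgeR adjusted p = 0.568). H2-Ob (34238905 to 34245908, plus strand) had 1.34, 1.21, 1.05 and 0.99 CPM in the WT libraries and 0.44, 1.26, 2.26 and 0.57 CPM in the KO libraries (log2 fold change −0.02, 95% interval −1.02 to 0.98; edgeR adjusted p = 0.985). In both genes the groups overlapped. Their intervals include a change of 2-fold downward in each gene. The counts per library were 7 to 33 for H2-Oa and 22 to 104 for H2-Ob, and 1 count was worth 0.0514 CPM in the shallowest library. H2-Oa and H2-Ob carry the same pair of GNAAC and GATTGG as H2-Aa, H2-Eb1 and H2-DMb1 in the promoter stretches above.

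Ciita had 2.57, 2.58, 3.77 and 2.29 CPM in the WT libraries and 6.28, 3.33, 9.33 and 10.01 CPM in the KO libraries. KO replicates 1, 3 and 4 lay above all WT libraries, and KO replicate 2 lay below WT replicate 3. The mean was 2.80 ± 0.66 CPM in WT and 7.24 ± 3.07 CPM in KO (SD, n = 4 each), a 2.57-fold difference with a 95% interval of 1.60 to 4.12 (edgeR adjusted p = 0.0184). Per base of exon its level was 0.49 RPKM in WT and 1.27 RPKM in KO. The call of Ciita was lost in limma-voom (adjusted p = 0.0685) and in edgeR without WT replicate 1 (adjusted p = 0.0506) or WT replicate 2 (adjusted p = 0.0507). The files give gene totals, so the transcripts of its separate promoters were not told apart.

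**Figure D2:**
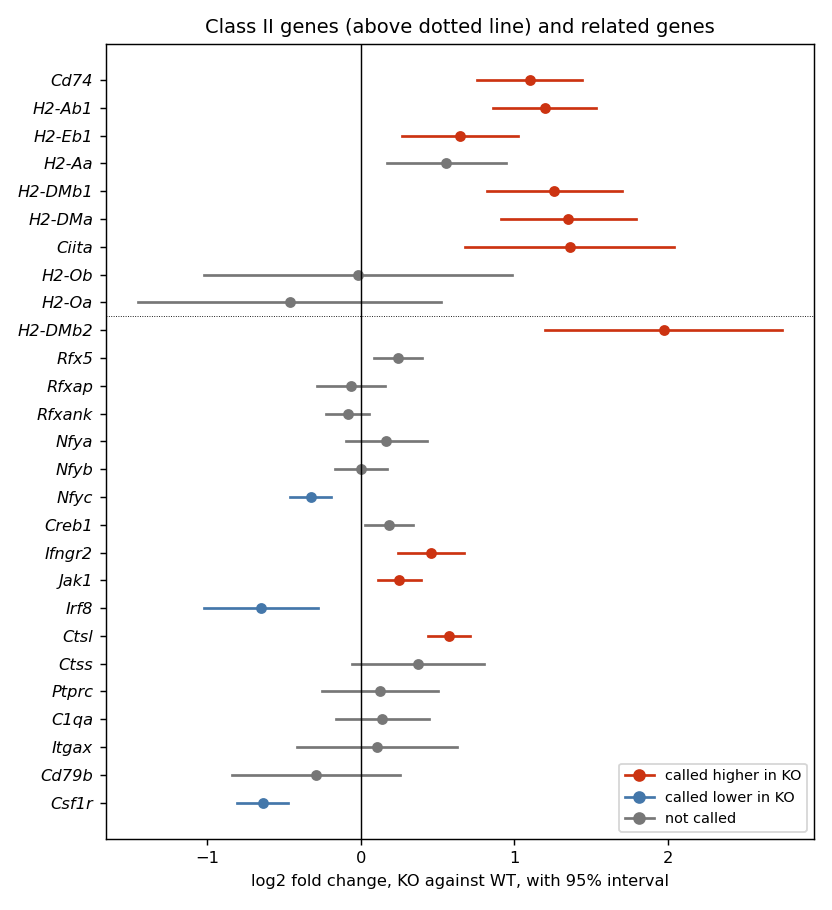
Log2 fold change, KO against WT (n = 4 each), with 95% intervals from the edgeR fit, for the 9 genes above the dotted line and for H2-DMb2, promoter factors, interferon-γ signalling, peptide loading and leukocyte marker genes below it. Genes called at an adjusted p under 0.05 are in colour. The intervals of Cd74, H2-Ab1, H2-Eb1, both H2-DM chains, Ciita and H2-DMb2 lie right of 0, as does that of H2-Aa, which was not called.

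The ratio of partner chains was taken within each library, which removes depth and scaling. Counts per base of H2-Ab1 over H2-Aa were 1.03, 1.12, 1.22 and 1.21 in WT and 1.60, 1.75, 1.66 and 2.20 in KO. All 4 KO ratios exceeded all 4 WT ratios. The mean ratio was 1.14 ± 0.09 in WT and 1.80 ± 0.27 in KO (SD, n = 4 each), with an exact permutation p (both sides) of 0.0286, the smallest possible, and 0.0857 after adjustment over the 3 ratios computed, which does not pass 0.05. The log2 difference was 0.65 in the libraries whose title begins with E and 0.65 in the others. For H2-DMb1 over H2-DMa the ratio was 2.68 ± 0.11 in WT and 2.51 ± 0.09 in KO (exact permutation p = 0.0857, adjusted p = 0.129, n = 4 each). For H2-Ob over H2-Oa it was 0.92 ± 0.57 and 0.99 ± 0.59 (exact permutation p = 0.914, also after adjustment, n = 4 each). The ratios were chosen after the levels had been seen.

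**Figure D3:**
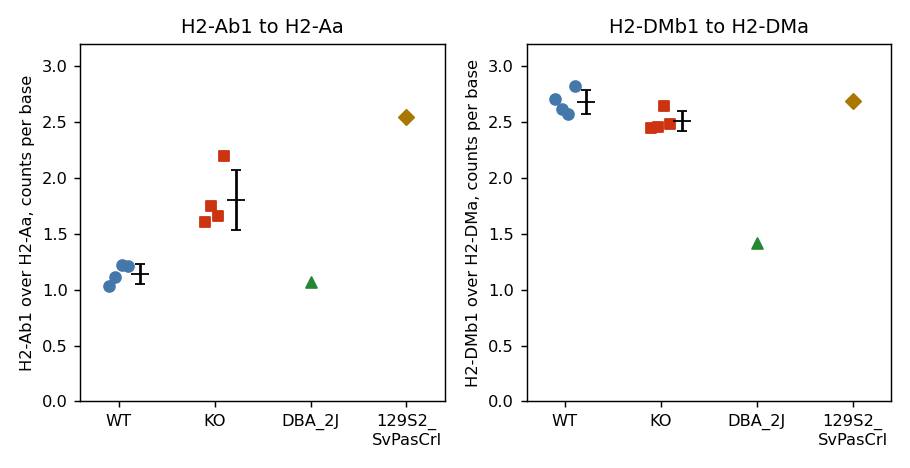
Counts per base of a β chain gene over those of its α chain partner in each library, with means and SDs (n = 4) for WT and KO of C57BL/6N and single points for DBA_2J and 129S2_SvPasCrl. H2-Ab1 over H2-Aa lies between 1.03 and 1.22 in WT and between 1.60 and 2.20 in KO. H2-DMb1 over H2-DMa lies near 2.5 to 2.8 in all libraries but DBA_2J, which lies at 1.42.

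Within the KO group the libraries had a similar order from gene to gene. KO replicate 2 was lowest of the KO libraries for H2-Aa, H2-Ab1, H2-Eb1, H2-DMa, H2-DMb1, Cd74 and Ciita. KO replicate 3 was highest for H2-Aa, H2-Ab1, H2-Eb1 and Cd74, and KO replicate 4 for H2-DMa, H2-DMb1 and Ciita. The summed level of the 9 genes ran from 364 to 693 CPM in KO and from 237 to 290 CPM in WT. With each group centred on its own mean, H2-DMa and H2-DMb1 correlated across the 8 libraries at r = 0.87 and 0.84 with Ciita and at r = 0.63 and 0.64 with the mean of H2-Aa, H2-Ab1, H2-Eb1 and Cd74. The chain genes differed in their r with Ciita, which was 0.89 for H2-Ab1, 0.71 for Cd74, 0.67 for H2-Eb1 and 0.57 for H2-Aa. These values describe 8 libraries, and the genes of a pair share each library's depth and scaling. Centring did not take out whether a title begins with E, and KO minus WT was larger in libraries with E for all 9 genes.

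The pan-leukocyte gene Ptprc, which encodes CD45, had 5.36, 4.80, 7.40 and 5.32 CPM in KO replicates 1 to 4, so its highest and lowest KO libraries are those of the chain genes as well. Centred in the same way, Ptprc correlated at r = 0.86 with H2-Aa, 0.86 with H2-Eb1, 0.74 with H2-Ab1 and 0.79 with Cd74, and at r = 0.25 with H2-DMa, 0.26 with H2-DMb1 and 0.50 with Ciita. The part of leukocyte content in the spread within KO was not tested.

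Titles with and without a leading E each held 2 KO and 2 WT libraries, and the labels do not say what the form marks. KO minus WT was larger in the libraries with E for all 9 genes. For H2-Ab1 the log2 difference was 1.44 with E and 0.89 without, for Cd74 1.41 and 0.73, for Ciita 1.70 and 0.82, and for H2-Eb1 1.02 and 0.22. The interaction of genotype and title form passed for none of the 9 genes (edgeR adjusted p from 0.696 to 0.865). It passed for 0 of 15547 tested genes, while 6.46% of them (1004 genes) reached an unadjusted p under 0.05. Those 1004 genes include H2-Ab1, H2-Eb1, H2-DMb1 and Cd74, with interaction log2 values of 0.54, 0.79, 0.65 and 0.67, but no other member. With no filter on low counts, 38 genes were called for the interaction. H2-Ab1, H2-DMa, H2-DMb1 and Cd74 were called within each form alone, whereas H2-Eb1 and Ciita were called in neither.

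**Figure D4:**
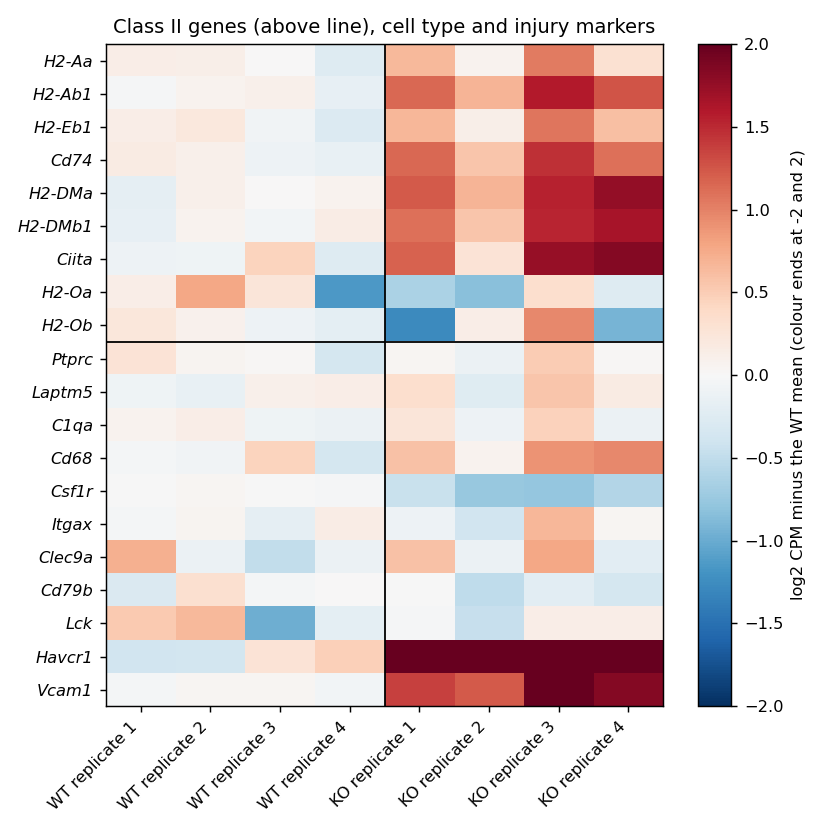
Log2 CPM minus the WT mean in each of the 8 C57BL/6N libraries, red above and blue below the WT mean, for the 9 genes above the horizontal line and for leukocyte and injury markers under it. The KO columns are red for 7 of the 9 genes, palest in KO replicate 2, and are mixed for H2-Oa, H2-Ob and most leukocyte markers.

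The factors that hold Ciita on class II promoters were not called higher in the main test. Of 7 tested genes (Rfx5, Rfxap, Rfxank, Nfya, Nfyb, Nfyc and Creb1), 0 were called higher and 1 lower, with a median log2 fold change of 0.00. At an unadjusted p under 0.05 there were 2 higher and 1 lower, DESeq2 called 1 and 1, and limma-voom 0 and 1. The gene called lower was Nfyc, a subunit of the Y box factor NF-Y, which fell from 77.9 ± 4.33 CPM in WT to 62.2 ± 3.17 CPM in KO (SD, n = 4 each; log2 fold change −0.33, SE 0.06; edgeR adjusted p = 0.00665). Rfx5, the DNA-binding subunit of the X box factor, had 26.1 ± 2.34 and 30.9 ± 0.93 CPM (log2 fold change 0.24, SE 0.07; edgeR adjusted p = 0.0539). Rfx5 was the 1 gene of the 7 whose KO libraries all lay above the WT libraries, and Nfyc the 1 with the opposite. The shares of all tested genes were 9.77% and 7.95%. Rfx5 was called without WT replicate 3 (adjusted p = 0.025), in DESeq2 (0.0305) and in libraries thinned to equal depth (0.0322). The other 5 had log2 fold changes of −0.09 (Rfxank), −0.06 (Rfxap), 0.00 (Nfyb), 0.17 (Nfya) and 0.19 (Creb1).

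Interferon-γ, the classical inducer of Ciita outside the immune system, was itself scarcely read. Ifng had 0 counts in all 4 WT libraries and 6, 1, 2 and 1 counts in KO replicates 1 to 4, and was not tested. Of 9 tested genes of its signalling, 3 were called higher and 1 lower, with a median log2 fold change of 0.24. The shares over all tested genes, for this and the other lists, were 6.32% higher and 4.68% lower. An unadjusted p under 0.05 gave 4 higher and 1 lower, and DESeq2 and limma-voom each called 3 and 1. The receptor chain gene Ifngr2 went from 27.4 ± 3.57 to 37.6 ± 3.19 CPM (log2 fold change 0.46, SE 0.10; edgeR adjusted p = 0.014). The kinase gene Jak1 was called too (0.25, SE 0.06; adjusted p = 0.0274). Its call was lost without any 1 of WT replicates 2 to 4 or KO replicates 2 to 4 (adjusted p = 0.0505 to 0.0799).

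Irf8, a factor of the myeloid lineage in the same list, was called lower (log2 fold change −0.65, SE 0.17; edgeR adjusted p = 0.0332). The call was lost without WT replicate 1 or any 1 of the 4 KO libraries (adjusted p = 0.0599 to 0.0818). Without WT replicate 3, which was the highest library, the log2 fold change was −0.40.

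Of 13 tested targets of interferon-γ, 6 were called higher and 0 lower, with a median log2 fold change of 0.38. At an unadjusted p under 0.05 there were 7 higher and 0 lower, DESeq2 called 7 and 0, and limma-voom 4 and 0. Gbp6, a guanylate-binding protein gene, had 5.50, 4.24, 4.43 and 3.47 CPM in the WT libraries and 15.1, 7.67, 12.9 and 13.7 CPM in the KO libraries (log2 fold change 1.496, SE 0.21; edgeR adjusted p = 0.00122). KO replicate 2 was again the lowest of the KO libraries, and the groups did not overlap. The chemokine gene Cxcl10 went from 3.06 ± 0.20 to 5.93 ± 1.07 CPM (log2 fold change 0.95, SE 0.16; adjusted p = 0.00342), with its highest value in KO replicate 2. The GTPase genes Irgm1 (0.40, SE 0.09; adjusted p = 0.0209) and Iigp1 (0.67, SE 0.16; adjusted p = 0.0245) were called as well. Irgm1 was lost without WT replicate 2 or 3 (adjusted p = 0.057 and 0.0545), and Iigp1 without WT replicate 3 or 4 or KO replicate 1 or 3 (adjusted p = 0.0552 to 0.0692).

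The next list holds proteases and enzymes that prepare class II peptides. Of 10 tested genes of peptide loading and turnover, 5 were called higher and 0 lower, with a median log2 fold change of 0.32. An unadjusted p under 0.05 gave 6 higher and 1 lower, and DESeq2 and limma-voom each called 5 and 0. Ctsl, the cathepsin that trims the invariant chain in thymic epithelium, went from 479 ± 34.6 to 714 ± 13.1 CPM (log2 fold change 0.58, SE 0.06; edgeR adjusted p = 0.000295). The other called genes were Ctsb (0.39), Lgmn (0.43), Ctsd (0.32) and Ifi30 (0.31), which all code for lysosomal enzymes. Ctss, the cathepsin that trims the invariant chain in professional antigen-presenting cells, had 6.92 ± 1.17 and 9.0 ± 2.56 CPM and was not called (log2 fold change 0.37, SE 0.20; adjusted p = 0.259).

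Of 12 tested genes of class I presentation, 6 were called higher and 0 lower, with a median log2 fold change of 0.38. An unadjusted p under 0.05 gave 7 higher and 0 lower, DESeq2 called 7 and 0, and limma-voom 6 and 0. B2m, the light chain of class I molecules, went from 201 ± 13.5 to 361 ± 12.2 CPM (log2 fold change 0.85, SE 0.06; edgeR adjusted p = 2.6e-05). The heavy chain genes H2-K1 (0.52, SE 0.08; adjusted p = 0.00167) and H2-D1 (0.43, SE 0.07; adjusted p = 0.00248) and the loading protein gene Tapbp (0.35, SE 0.06; adjusted p = 0.00466) were called too. The log2 fold changes of H2-K1, H2-D1 and Tapbp lie below those of H2-Ab1, Cd74 and both H2-DM chains. That of B2m also lies below those, but above those of H2-Aa (0.56) and H2-Eb1 (0.65). These differences were not tested. Nlrc5, the class I counterpart of Ciita, had 4.47 ± 0.55 and 4.75 ± 0.64 CPM (log2 fold change 0.10, SE 0.15; adjusted p = 0.735).

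Genes between and beside the class II genes on chromosome 17 were read as a check of the region. Of 9 tested neighbours, 2 were called higher, the peptide transporter genes Tap1 (log2 fold change 0.41) and Tap2 (0.53), and 1 lower, Notch4 (−0.32). Their median log2 fold change was 0.06. Tap1 and Tap2 are also in the class I list above and among its 6 genes called higher. The call of Tap1 was lost without WT replicate 3 or KO replicate 1 (edgeR adjusted p = 0.0584 and 0.0519), and that of Notch4 without any 1 of WT replicates 1, 2 and 4 or KO replicates 2 to 4 (adjusted p = 0.0621 to 0.0856).

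Leukocyte markers, among them those of the cells that carry class II in a resting kidney, are given next. They stand beside the 6.32% of all tested genes called higher and 4.68% called lower. Of 9 tested pan-leukocyte genes 0 were called (0 at an unadjusted p under 0.05, and 0 in DESeq2 and in limma-voom), with a median log2 fold change of 0.07. Their summed level was 38.9 to 46.6 CPM in WT and 34.3 to 55.6 CPM in KO. Ptprc had 6.32, 5.41, 5.29 and 4.07 CPM in WT, a range that overlaps KO (log2 fold change 0.12, SE 0.17; edgeR adjusted p = 0.706).

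Of 13 tested macrophage genes 0 were called higher and 1 lower, with a median log2 fold change of 0.03. At an unadjusted p under 0.05 there were 1 higher (Cd68, log2 fold change 0.65; edgeR adjusted p = 0.103) and 1 lower, and DESeq2 and limma-voom called 0 and 1. Their summed level was 167 to 183 CPM in WT and 137 to 159 CPM in KO, and without Csf1r it was 107.4 to 126 CPM and 102.7 to 124 CPM. The gene called lower was Csf1r, the receptor gene of macrophage colony-stimulating factor, at 57.7 ± 1.22 and 37.0 ± 4.14 CPM (log2 fold change −0.64, SE 0.08; edgeR adjusted p = 0.000512). C1qa, another macrophage gene, had 10.7 ± 0.92 and 11.8 ± 2.38 CPM and was not called. Of 11 tested dendritic cell genes 0 were called (1 higher at an unadjusted p under 0.05, 1 in DESeq2 and 0 in limma-voom), with a median log2 fold change of −0.10. Cd24a, which many other cells express too, made up most of their sum, and the other genes of the list summed to 10.7 to 11.8 CPM in WT and 10.04 to 15.4 CPM in KO.

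The dendritic cell gene nearest to the threshold was Irf4, at 0.88 ± 0.12 and 1.70 ± 0.56 CPM (log2 fold change 0.94, SE 0.28; edgeR adjusted p = 0.0512). Its groups did not overlap, and it was called without KO replicate 3 (adjusted p = 0.0282), in DESeq2 (0.0187), with title form as a term (0.0365) and in thinned libraries (0.0431). Itgax, which encodes CD11c, had 2.17 ± 0.22 and 2.34 ± 0.79 CPM. Of 5 tested B cell genes 0 were called (1 lower at an unadjusted p under 0.05, and 0 in DESeq2 and limma-voom). All 8 B cell genes, tested or not, summed to 3.47 to 4.57 CPM in WT and 2.27 to 3.73 CPM in KO. Of 8 tested T and NK cell genes 0 were called (1 higher at an unadjusted p under 0.05, and 0 in DESeq2 and limma-voom). The 11 such genes with counts, tested or not, summed to 3.08 to 6.53 CPM in WT and 3.47 to 5.92 CPM in KO. The part of any of these cell types in the class II difference was not tested.

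Of 3 tested costimulation genes 0 were called, also at an unadjusted p under 0.05 and in DESeq2 and limma-voom. Cd80 and Pdcd1lg2 of the same list were too low to be tested. Cd80 had 0 counts in each WT library and 8, 14, 1 and 4 counts in KO replicates 1 to 4. Pdcd1lg2 had at most 3 counts in any C57BL/6N library. Of 7 tested repressors and co-regulators of Ciita 0 were called (2 higher at an unadjusted p under 0.05, 1 in DESeq2 and 0 in limma-voom). The endothelial list of 6 genes had a median log2 fold change of −0.27, with 0 higher and 3 lower at an unadjusted p under 0.05, 2 lower in DESeq2 and 1 lower in limma-voom. The main test called 1 lower, Kdr (log2 fold change −0.32; edgeR adjusted p = 0.0369), whose call was lost without any 1 library except KO replicate 3 (adjusted p = 0.0615 to 0.0972).

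Of 11 tested genes of tubular injury, 7 were called higher and 0 lower, against 6.32% and 4.68% of all tested genes. An unadjusted p under 0.05 gave 7 higher and 1 lower, and DESeq2 and limma-voom each called 6 and 0. Havcr1, the injury marker KIM-1 of proximal tubule cells, had 1.34, 1.34, 2.13 and 2.45 CPM in the WT libraries and 35.03, 40.1, 29.1 and 75.4 CPM in the KO libraries. Vcam1, an adhesion molecule gene that injured tubule cells also switch on, had 16.8, 15.3, 28.1 and 23.3 CPM in KO and 6.27 to 6.71 CPM in WT. KO replicate 2 was the lowest KO library for Vcam1, as for 7 of the 9 class II pathway genes, but the second highest for Havcr1. Of the other genes of the injury list, Vim was also lowest in KO replicate 2. Another KO library was lowest for Sox9, Anxa3, Krt20, Spp1, Krt8, Krt18, Lcn2 and Clu. The part of tubular injury in the class II difference was not tested. The proximal tubule list of 10 genes had 1 higher (Slc13a1) and 2 lower (Lrp2 and Slc27a2), with a median log2 fold change of −0.18. The call of Slc13a1 was lost without WT replicate 3, KO replicate 1 or KO replicate 2 (edgeR adjusted p = 0.0529 to 0.0607), and that of Lrp2 without any 1 library except KO replicate 4 (adjusted p = 0.0548 to 0.107).

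The single strain libraries were set beside the 4 WT C57BL/6N libraries by size alone, with CPM scaled over all 10 libraries. DBA_2J mice carry the H2d haplotype, whose class II alleles differ in sequence from the C57BL/6 reference, and 129S2_SvPasCrl mice carry class II genes of the b haplotype, as C57BL/6 mice do. For DBA_2J a low count can therefore be a lower level or reads that did not align, which cannot be told apart here.

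**Figure D5:**
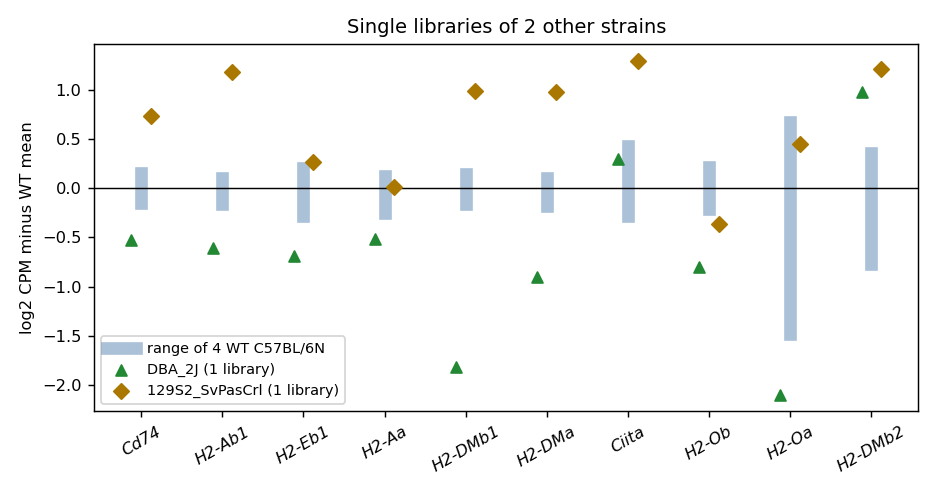
Log2 CPM minus the WT mean for the single DBA_2J (triangles) and 129S2_SvPasCrl (diamonds) libraries, with bars for the range of the 4 WT C57BL/6N libraries, for the 9 genes and H2-DMb2. DBA_2J lies below the bar for 8 of the 9 genes and inside it for Ciita, and 129S2_SvPasCrl lies above the bar for 6 of the 9.

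In DBA_2J, 8 of the 9 genes were below the WT range, against 36.0% of the 16903 genes compared, and 0 were above it, against 34.5%. H2-DMb1 and H2-Oa were lower than the WT mean by 2-fold or more, a size that 9.35% of the compared genes reached, and none of the 9 was higher by that size (6.17%). Their median log2 difference from the WT mean was −0.69 (−0.02 over all genes compared). H2-Aa had 28.2 CPM, H2-Ab1 33.6 CPM, H2-Eb1 29.1 CPM and Cd74 73.4 CPM, differences of −0.51 to −0.69 in log2. Cd74 lies outside the H2 region, on another chromosome. H2-DMb1 was lower still, at 3.11 CPM against 11.1 ± 1.05 CPM in WT (log2 difference −1.82), and H2-Oa had 5 counts. H2-DMa had 2.84 CPM (−0.91). Ciita, at 3.35 CPM, was inside the WT range of 2.28 to 3.74 CPM.

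The near copy of H2-DMb1, H2-DMb2, went the other way in DBA_2J, at 1.47 CPM against 0.75 ± 0.23 CPM in WT. The ratio of H2-DMb1 to H2-DMa per base was 1.42 in DBA_2J, below all C57BL/6N libraries, which ran from 2.45 to 2.82. The ratio of H2-Ab1 to H2-Aa was 1.07, inside the WT range.

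H2-Ea-ps, the annotated I-E α chain pseudogene of the reference (34342212 to 34344645, minus strand), separated DBA_2J from every other library. It had 1120 counts there (20.6 CPM) and 0 counts in the other 9 libraries. Against a floor of 3 counts over the WT group (0.0251 CPM), this is at least 820-fold higher in DBA_2J. Per base of exon its level in DBA_2J, 26.3 RPKM, compares with 17.5 RPKM for H2-Eb1, its β chain partner, and with 26.4 RPKM for H2-Aa and 28.2 RPKM for H2-Ab1. As background, the H2d haplotype makes the I-E α chain and H2b does not.

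In 129S2_SvPasCrl, 6 of the 9 genes were above the WT range, against 32.0% of the 16903 genes compared, and 1 was below it, against 30.9%. H2-Ab1 and Ciita were higher than the WT mean by 2-fold or more, as were 5.38% of the compared genes, and none of the 9 was lower by that size (6.85%). The median log2 difference of the 9 genes was 0.73 (0.01 over all genes compared). H2-Ab1 had 115.9 CPM (log2 difference 1.17), Cd74 175.3 CPM (0.73), H2-DMa 10.6 CPM (0.97), H2-DMb1 21.98 CPM (0.98) and Ciita 6.76 CPM (1.29). H2-Eb1, at 56.4 CPM, was just above the highest WT library, at 54.5 CPM. H2-Aa, at 40.7 CPM, was inside the WT range, and H2-Ob, at 0.87 CPM, just below it.

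The 129S2_SvPasCrl library is Ehhadh wild-type by its label. Its H2-Ab1, H2-Eb1, H2-DMa, H2-DMb1, H2-Ob, Cd74 and Ciita levels lay within the range of the 4 KO libraries, while H2-Aa lay below it and H2-Oa above it. Of all compared genes, 34.2% lay within that range. Both comparisons share the 4 WT libraries as controls. The ratio of H2-Ab1 to H2-Aa was 2.55, above every C57BL/6N library.

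Leukocyte markers were set beside these levels. The 9 pan-leukocyte genes had a median log2 difference from WT of −0.62 there and −0.81 in DBA_2J, and Ptprc had 5.18 CPM and 4.71 CPM, both inside the WT range. The 13 interferon-γ targets had medians of −0.53 and −0.47, with Gbp6 at 1.38 CPM in 129S2_SvPasCrl against 4.37 ± 0.82 CPM in WT. Havcr1 had 62.7 CPM in 129S2_SvPasCrl and 4.07 CPM in DBA_2J. With 1 library a strain, none of these differences has a replicate check.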

How the data were processed

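The authors deposited raw counts per gene for each library and a matrix that joins them. The matrix equalled the single tables in 10 of 10 libraries. Per the file headers, these were made by featureCounts 1.5.2 from primary alignments on exons of the UCSC mm10 genes. Reads on several genes were counted for each of these, and strand was not used. Per the submitters' processing notes, STAR, featureCounts and edgeR were used with mm10 (GRCm38). Per the labels' protocols, polyadenylated RNA was read as single ends of 100 bases. The authors also deposited a log2 table of 13645 genes, 8 of the 9 members among them, which equals voom log2 CPM with TMM scaling within 4.97e-14 and served only as a check. Groups came from the labels. Replicates are numbered by accession, which pairs no samples. The design text gives 4 male animals per genotype, and p-values measure the spread between these samples. The members, gene lists, tests and alternatives were chosen with earlier results of these data known.

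KO and WT were compared on the deposited counts with edgeR 4.0.16 under R 4.3.3. Low genes were removed by filterByExpr, totals were scaled by TMM, and genotype was tested by quasi-likelihood F tests. A gene was called where its Benjamini-Hochberg value over 15547 genes was under 0.05. The step was tested on simulated data. CPM and RPKM use TMM-scaled totals, and RPKM the union length of annotated exons. Strain libraries used log2 CPM (prior count 2) with TMM over 10 libraries, so WT values there differ slightly. Intervals are 95%. Floors use 3 counts and cover counting error only. Alternatives were DESeq2 1.42.0, limma-voom (limma 3.58.1), other scalings and filters, the title form, thinning to equal depth, all 10 libraries in the fit and each library left out. Leaving out libraries from the chain ratios was added after the values were seen.

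Named genes are the 9 members, all other class II genes and promoter factors, and from each other list the called genes of smallest p (4 at most), or 2 at most in lists with no call. Others were named after their values were seen, where a count of 5 or fewer or a member's level called for it (such as Nlrc5, Ctss, Ptprc, C1qa and Itgax). Some genes that the rule picks are left out of the text. The 10 genes most like the chain genes and Ciita were ranked by r.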

Additional observations from a re-analysis of the deposited data

How the results depend on the processing

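H2-Ab1, H2-DMa, H2-DMb1 and Cd74 were called higher in KO under all 18 alternatives, with log2 fold changes of 0.90 to 1.45, 1.0 to 1.62, 0.89 to 1.54 and 0.76 to 1.43. The number of the 9 genes called was 4 to 7. H2-Eb1 lost its call in 8 alternatives, among them titles with a leading E alone (adjusted p = 0.0557) and without E alone (0.33), and Ciita in 5, among them titles with E alone (0.053) and without (0.084). H2-DMb2 lost its call with titles without E alone (0.0796). With titles with E alone, 143 genes were called over all, from 4 libraries. Leaving out 1 library gave 1005 to 1638 genes, and the whole range was 143 to 2388. The interaction with title form called 38 genes with no filter on low counts.

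Directions changed only for values that did not pass the test. With titles with E alone, log2 fold changes were 0.38 for H2-Oa, 0.46 for H2-Ob, −0.11 for Icosl and 0.0092 for Clec10a. With titles without E alone they were −0.073 for Nfya and −0.023 for Nfyb. Nfyb was −0.0035 in limma-voom and −0.027 with upper-quartile scaling. With 1 library left out, values ran from −0.61 to 0.25 for H2-Ob, −0.12 to 0.0027 for Rfxap, −0.042 to 0.034 for Nfyb and −0.043 to 0.13 for Icosl, and the log2 difference of the H2-Ob to H2-Oa ratio ran from −0.27 to 0.43. Those of the H2-Ab1 to H2-Aa and H2-DMb1 to H2-DMa ratios ran from 0.55 to 0.70 and from −0.12 to −0.07. With no scaling factor, H2-Aa in 129S2_SvPasCrl differed from WT by −0.0016. The causes were not tested. No paired analysis was possible because the labels give no replicate numbers that KO and WT share.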

Other observations

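Genes whose levels followed the class II chains within the groups were ranked by the r of log2 CPM, centred on each group's mean, over 8 libraries and 13730 genes. Nearest to the mean of H2-Aa, H2-Ab1, H2-Eb1 and Cd74 were Mir5107, Rasal3, Dnajb4, Zbtb17, H2-T23, Abca9, Ppp4c, 2210408I21Rik, F13a1 and Tor1a (r = 0.95 to 0.98). Mir5107 shares 12 exon bases with Cd74, and a read over them was counted for both. H2-T23 is a class I gene and F13a1 is a gene of tissue macrophages. Between the groups H2-T23 was not called (log2 fold change 0.08; edgeR adjusted p = 0.56), and F13a1 was called lower in KO (−1.04; adjusted p = 0.0245).

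Nearest to Ciita were Cyp51, Amt, Gpr179, C4b, Rps19, Cd68, Sfxn2, Klhl29, Cyp2c44 and Wdr31 (r = 0.95 to 0.98). Cd68 is a lysosomal protein gene of macrophages, and C4b encodes complement component C4. Neither was called between the groups (log2 fold change 0.65 and 0.43; edgeR adjusted p = 0.103 and 0.198). With so many genes ranked over 8 libraries, values of this size are a description only.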
